A study of Mus musculus with 12 samples.

Results

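Potassium channel subunit genes were followed in primary cells of the fetal mouse cerebral cortex treated with the thyroid hormone triiodothyronine (T3). The genes were chosen by name: every mouse symbol made of Kcn, further letters and a final number, except Kcnj10 and Kcnj16, the inward rectifiers best known from glia. The rule matched 90 annotated symbols, of which 66 had a row among the 14801 genes of the table and 65 had enough reads to be tested among 13663. The other 24 symbols, Kcne1 to Kcne4 among them, have no row in the table used here and were not analysed.

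Transcripts were counted by RNA sequencing of 12 cultures from 6 wild-type fetuses, numbered mouse 1 to 6. The tested cultures received 10 nM T3 for 24 h (T3, n = 6), and their partners from the same fetuses were kept in parallel without it (no T3, n = 6). In both groups the cells were taken on gestational day 17.5 and grown for 9 days in B27-supplemented medium after plating in horse serum, and B27 was withdrawn 24 h before the hormone was added. Each culture is a mixture of cells, so a smaller number of cells of a type and less RNA per cell cannot be told apart.

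Potassium channels set the resting potential of a neuron and end its action potentials. Voltage-gated Kv channels are tetramers of pore-forming subunits, whose properties are altered by silent Kv subunits that form no channel alone and by auxiliary subunits such as the KChIP and Kv beta proteins. Inward rectifiers (Kir) and pore-loop tandem channels (K2P) work near the resting potential, and calcium-activated channels act after a spike. The active form of thyroid hormone enters the nucleus and binds receptors that act as transcription factors, and a lack of the hormone in early life impairs the maturation of the cortex.

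Over the genes listed in the table, the libraries held 7460586 to 10837895 reads with T3 and 5272092 to 8136928 reads without it. In each of the 6 mice the T3 library was the deeper one by this count (exact sign-flip permutation test, two-sided, p = 0.03125, the smallest that 6 pairs allow). One read was worth 0.0911 to 0.186 CPM, counts scaled to the size of the library and adjusted by the authors with the TMM method, the unit of all levels here. Summed markers of neurons in general reached 7146 to 8700 CPM with T3 and 7613 to 9725 CPM without it. That sum was higher with T3 in 1 of 6 mice, and 2 of its 10 genes rose and none fell, beside 3.37% of all genes tested that rose and 2.14% that fell. Astrocyte markers summed to 1346 to 3528 CPM with T3 and 897.5 to 2988 CPM without it, higher with T3 in 6 of 6 mice, and 5 of the 10 tested rose. Among other markers, 3 of 8 of oligodendrocyte precursors rose, 1 of 12 of excitatory neurons rose and 4 fell, and 2 of 12 of inhibitory neurons rose and 2 fell. Of microglial markers, P2ry12 and Tmem119 have no row, and the sum of the list lay between 4.28 and 8.70 CPM with T3 and between 3.08 and 10.2 CPM without it. The no T3 library of mouse 4 stood apart. Its heart and skeletal muscle genes, of which 3 of the 8 listed have a row, summed to 1213 CPM against at most 6.89 CPM in the other 11 libraries. Its mural cell and fibroblast genes, 8 of 9 with a row, summed to 508.8 CPM against at most 224.4 CPM. Calls are therefore also given without mouse 4. The part of these cell-type markers and of depth in the channel results was not tested.

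The cultures expressed subunits of all 11 groups into which the symbols were sorted. Levels were compared between genes only after division by the merged exon length, which counts the exons of all annotated isoforms. Kcnd2 had the highest mean of the 66 genes on that scale without T3. This rank holds for the means without T3 only and was not tested. Kcnd2 had 18.3 ± 1.14 CPM per kb with T3 and 19.6 ± 1.96 CPM per kb without it (SD, n = 6 each). It encodes a pore of the fast transient A-type current. On the scale not divided by length, 22 of the 66 genes averaged under 10 CPM without T3 and 11 averaged over 50 CPM.

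**Figure D1:**
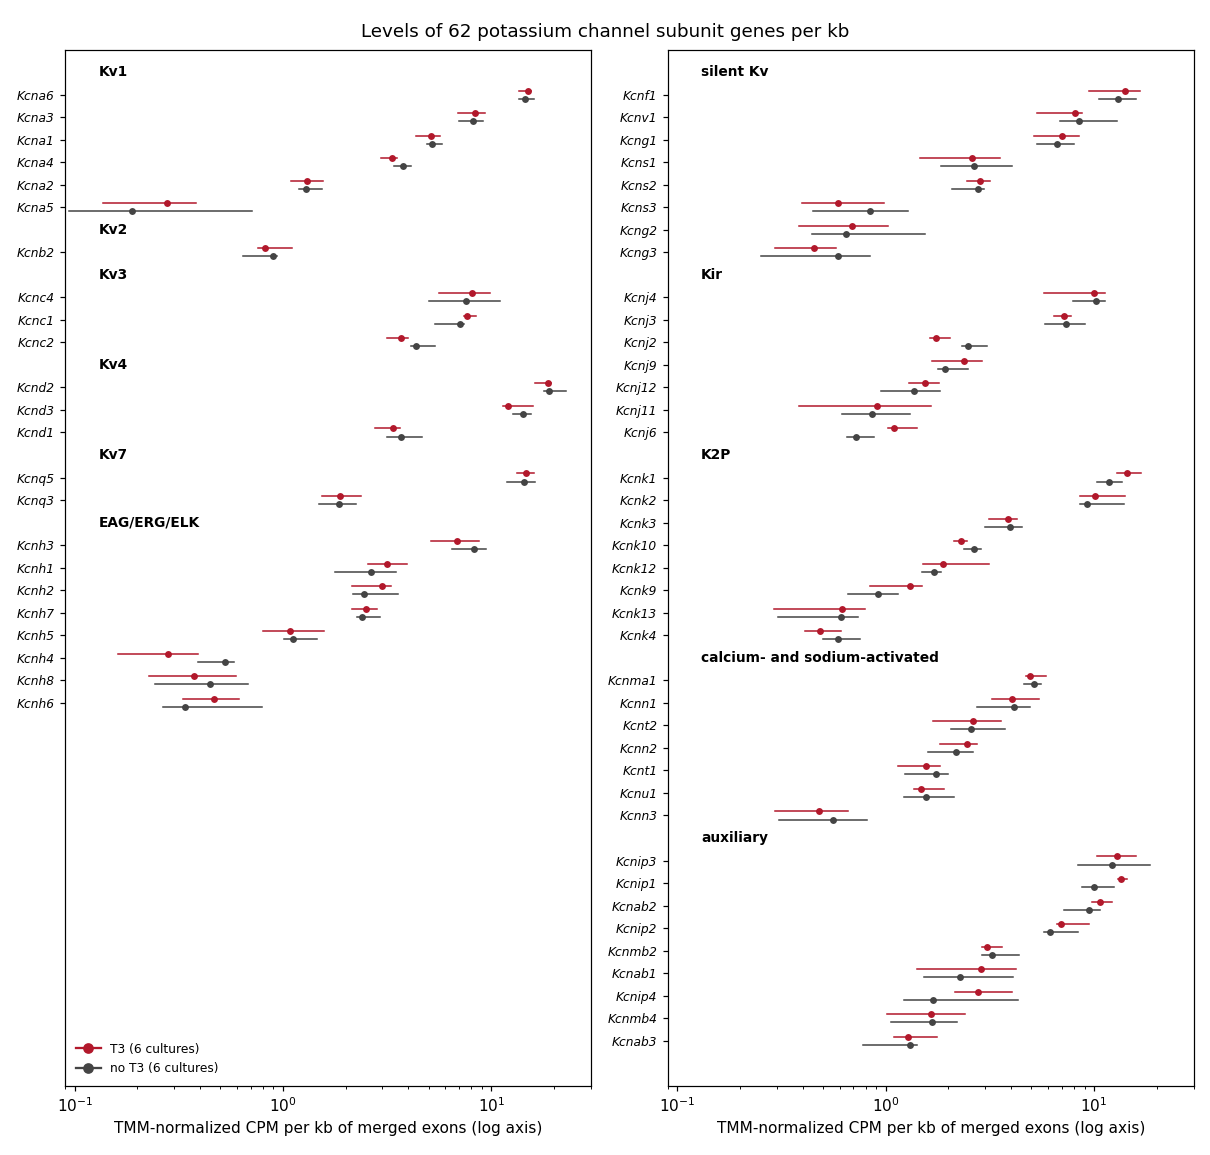
Levels of 62 of the 66 potassium channel subunit genes by subfamily, in TMM-normalized CPM per kb of merged exons on a log axis. Points are medians and lines run from the lowest to the highest of 6 cultures, T3 in red above no T3 in grey. Kcnd2 stands at the top, and the lines of most genes overlap between T3 and no T3.

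Within subfamilies the leading gene was set against the next one over the 6 cultures without T3. Both genes and their order were picked from these same cultures, so the p-values only describe how steady the order was among mice. Among Kv1 genes, which serve axons, Kcna6 stood at 14.6 ± 0.836 CPM per kb and Kcna3 at 8.15 ± 0.782 CPM per kb. Kcnd2 lay above Kcnd3, at 14.2 ± 0.923 CPM per kb, and Kcnh3 at 8.23 ± 1.00 CPM per kb lay above Kcnh1 at 2.63 ± 0.546 CPM per kb. The silent subunit Kcnf1 had 13.5 ± 2.00 CPM per kb and Kcnv1 had 9.36 ± 2.21 CPM per kb. These 4 orders held in 6 of 6 mice, with an exact sign-flip p of 0.03125, the smallest possible. After Benjamini-Hochberg adjustment over the 11 pairs it was 0.06875, and none of the 11 passed 0.05. At that smallest p a single pair could not pass the adjustment by itself, so this says little about the orders. The order held in 5 of 6 mice for Kcnj4 (9.70 ± 1.39 CPM per kb) over Kcnj3 (7.36 ± 1.12) and Kcnma1 (5.11 ± 0.361) over Kcnn1 (4.00 ± 0.780), each with an adjusted exact p of 0.0859. For Kcnk1 over Kcnk2 (12.0 ± 1.15 and 10.2 ± 2.00 CPM per kb, adjusted exact p = 0.153), Kcnip3 over Kcnip1 (12.6 ± 3.77 and 10.2 ± 1.37, 0.275) and Kcnc4 over Kcnc1 (7.85 ± 1.96 and 6.81 ± 0.727, 0.281) the difference did not exceed the spread. Strand was not kept in these libraries, so a gene cannot be told apart from one that overlaps it on the other strand. Such overlaps cover 39.6% of the Kcna6 exons and 31.1% of those of Kcnj3. In the genes that passed the test described next, no single such gene covers more than 8.0% of the exons.

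With T3, single subunits changed in several subfamilies and in both directions. The sum over all 66 genes was 2010 ± 79.2 CPM with T3 and 1980 ± 76.6 CPM without it (SD, n = 6 each). Of the 65 tested genes, 10 passed an adjusted p of 0.05, 15.4% of them, beside 5.52% of all genes tested. Of these, 6 rose, 9.23% of the tested subunit genes beside 3.37% of all genes, and Kcnip1, Kcnip4, Kcnj6, Kcnk9 and Kcnk1 are described here. Kcnj2, Kcnc2, Kcnh3 and Kcnh4 fell, 6.15% beside 2.14% of all genes. No test compared these shares. Changes were moderate: on the log2 scale of value + 0.5 they ran in size between 0.27 and 0.68, and the median over the 65 genes was 0.004, beside 0.003 over all genes. The levels of the 6 T3 and the 6 no T3 cultures did not overlap for 5 subunit genes (7.69%, beside 1.68% of all genes), which were Kcnip1, Kcnj6, Kcnj2, Kcnc2 and Kcnc1. All 6 mice moved one way for 10 subunit genes (15.4%, beside 10.8% of all genes), 7 of them among those that passed. Without mouse 4, when 4.17% of all genes passed, the subunit genes that did so numbered 7, with Kcnip1, Kcnip4, Kcnj6, Kcnj2, Kcnc2 and Kcnh3 among them. Without the trend and robust estimation of limma, the adjusted p was 0.0658 for Kcnip4, 0.173 for Kcnh3, 0.0727 for Kcnk9 and 0.0996 for Kcnk1.

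**Figure D2:**
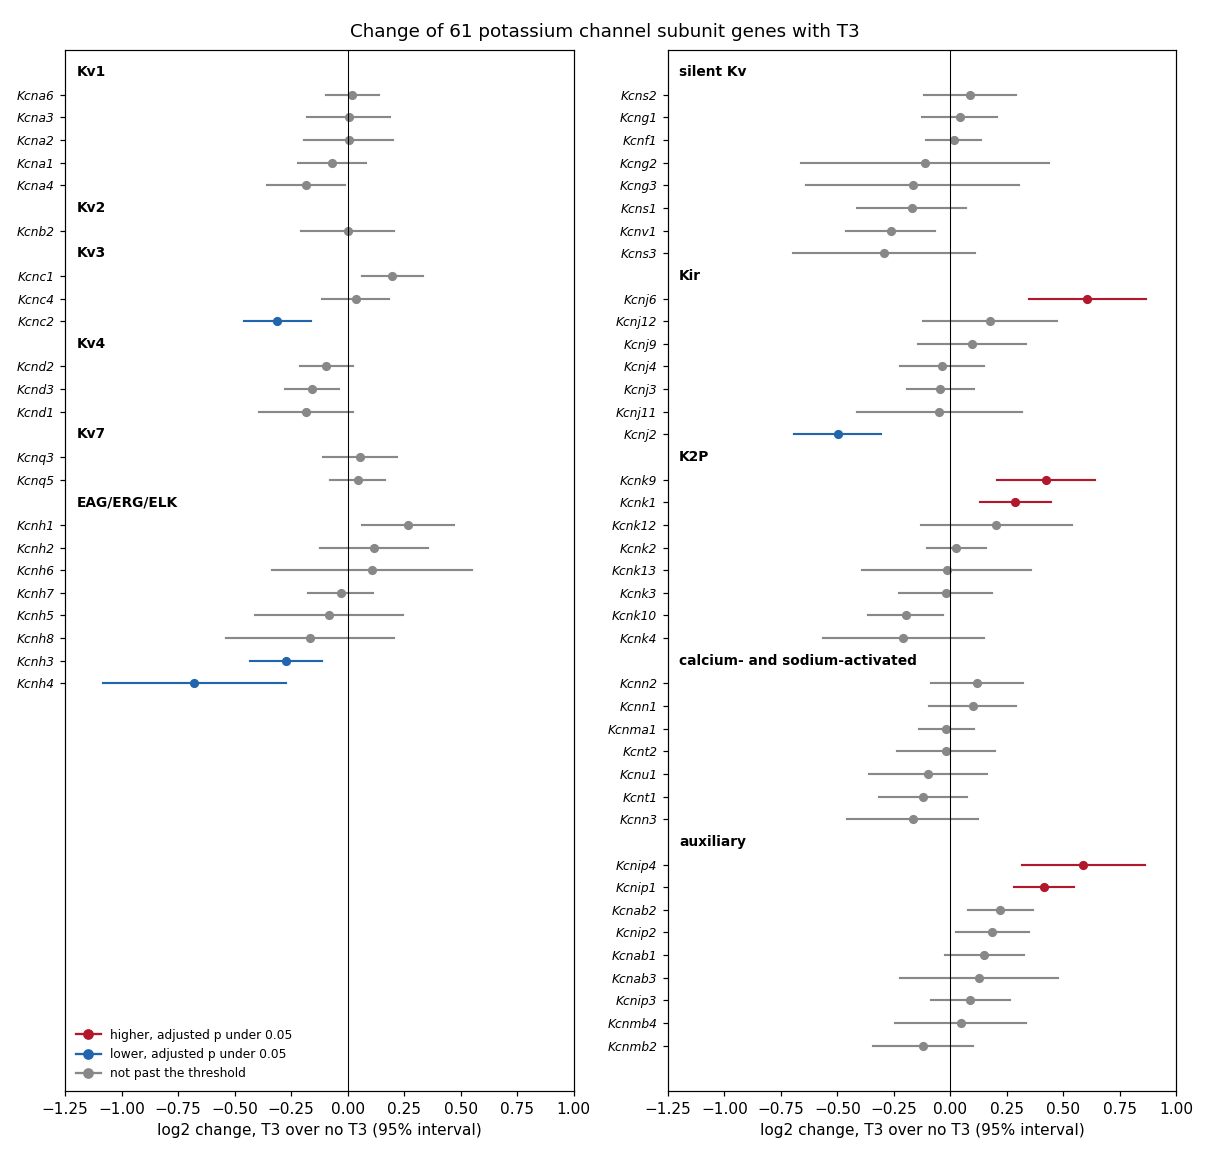
Change of 61 of the 65 tested subunit genes with T3, by subfamily. Points are log2 changes (T3 over no T3) from the limma fit paired by mouse and lines are 95% intervals, with genes that rose in red, genes that fell in blue and the rest in grey. The 9 coloured genes are spread over 5 of the 11 groups.

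Of the 9 auxiliary subunits tested, 8 had a log2 change above 0, beside 6975 of all 13663 genes, and 2 passed, beside 5.52% of all genes. Both are KChIPs, small calcium-binding proteins that attach to Kv4 pores, bring them to the surface and slow their inactivation. Kcnip1 (ENSMUSG00000053519) lies on chromosome 11 from 33629339 to 33993152 in GRCm38. It had 80.6, 83.4 and 89.5 CPM (lowest, median and highest) in the T3 cultures, against 54.2, 61.9 and 77.2 CPM in those without T3. Every T3 culture lay above every no T3 culture, and Kcnip1 rose 1.33-fold (log2 0.41, SE 0.0641, adjusted p = 0.000303). It passed in all 16 alternative analyses.

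Kcnip4, on chromosome 5 from 48389502 to 49524907, encodes a KChIP with a form that slows inactivation strongly. Its levels were 7.81, 10.1 and 14.6 CPM with T3, against 4.45, 6.15 and 15.7 CPM without it. The groups overlapped through mouse 5, the highest in both groups, and the level was higher with T3 in the other 5 mice. The paired fit gave a rise of 0.59 on the log2 scale (SE 0.13, adjusted p = 0.00782), and 0.73 without mouse 5 (adjusted p = 0.00127). The call was lost without the mouse as a block (adjusted p = 0.375), with limma-voom (0.0608) and with DESeq2 (0.0549).

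The other KChIP genes did not pass. Kcnip2 had a log2 change of 0.19 (95% interval 0.03 to 0.35, adjusted p = 0.198), and Kcnip3, also known as calsenilin or DREAM, had 0.09 (-0.09 to 0.26). The 3 Kv4 pore genes that KChIPs attach to all had log2 changes below 0 and none passed. Kcnd3 had -0.16 (-0.28 to -0.04, adjusted p = 0.13, and 0.0464 without mouse 1), Kcnd1 -0.18 (-0.39 to 0.03) and Kcnd2 -0.09 (-0.21 to 0.02). Their summed level was 34.4 ± 1.54 CPM per kb with T3 and 37.6 ± 2.20 CPM per kb without it. The 9 auxiliary genes, which include Kv beta and BK beta subunits besides the KChIPs, summed to 56.91 ± 3.73 and 49.65 ± 6.465 CPM per kb. Dpp6 and Dpp10, transmembrane partners of Kv4 outside the Kcn names, had log2 changes of 0.13 (adjusted p = 0.131) and 0.00 (0.984).

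Among the Kv beta subunits, which bind Kv1 pores, none passed in the fit of all 6 mice. Kcnab2 had 60.4 ± 4.51 CPM with T3 and 52.0 ± 6.82 CPM without it, higher with T3 in 6 of 6 mice (log2 0.22, adjusted p = 0.0648). It passed without mouse 1 (adjusted p = 0.0268) and without mouse 2 (0.0382). Kcnab1 had a log2 change of 0.15 (-0.02 to 0.32) and Kcnab3 of 0.13 (-0.22 to 0.47). The BK beta subunits Kcnmb2 and Kcnmb4 had log2 changes of -0.12 (-0.34 to 0.10) and 0.05 (-0.24 to 0.34), and antisense genes cover 20.8% and 10.7% of the Kcnmb4 exons.

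**Figure D3:**
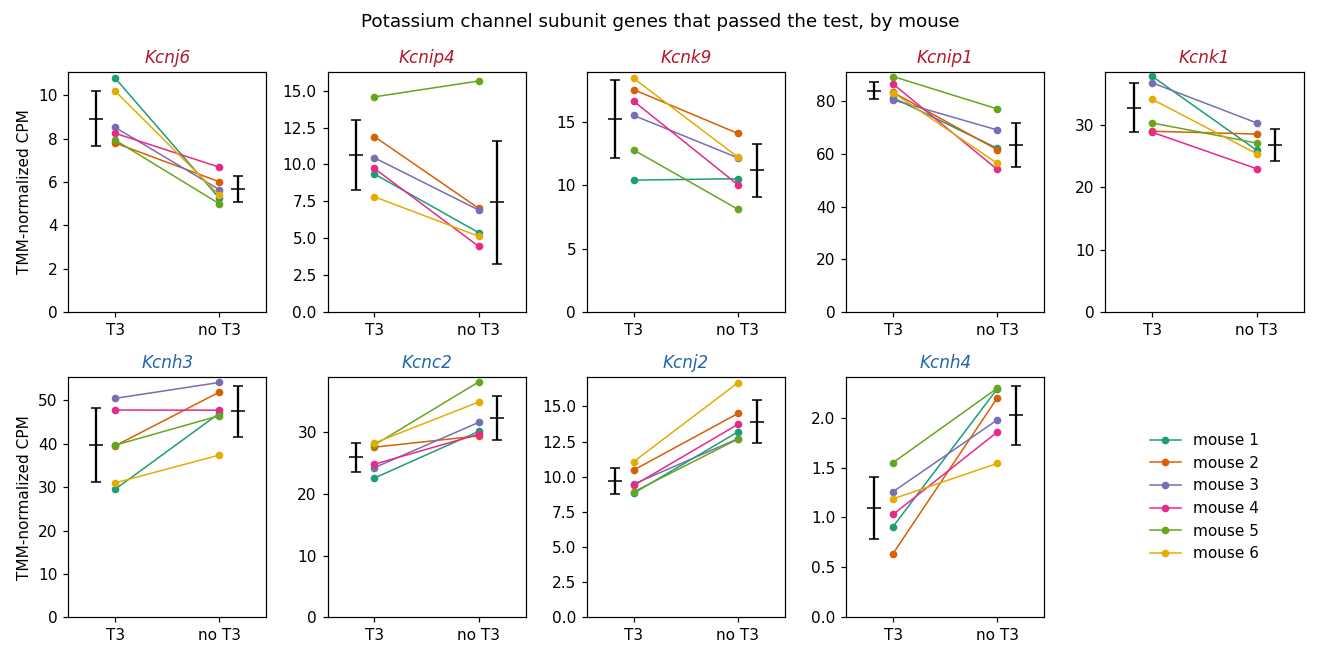
Levels of 9 of the 10 subunit genes that passed the test, in TMM-normalized CPM from 0, with T3 on the left and no T3 on the right of each panel. Points joined by a line are the paired cultures of a mouse, and black bars are the mean ± SD of 6 cultures. All 6 lines run the same way for Kcnip1, Kcnj6, Kcnk1, Kcnc2, Kcnj2 and Kcnh4, and 5 of 6 for Kcnip4, Kcnk9 and Kcnh3.

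Inward rectifiers moved in opposite directions. Kcnj6, on chromosome 16 from 94748636 to 94997701, encodes GIRK2, a channel opened by G protein-coupled receptors and the subunit on which neuronal GIRK channels are usually built. It had 7.80, 8.38 and 10.8 CPM with T3, against 4.99, 5.52 and 6.68 CPM without T3. The groups did not overlap, all 6 mice were higher with T3, and Kcnj6 rose 1.52-fold (log2 0.61, SE 0.124, adjusted p = 0.00431). Its interval ran from 0.35 to 0.86. The partner subunits lay nearer 0 and did not pass: Kcnj3 (GIRK1) had -0.04 (-0.19 to 0.11) and Kcnj9 (GIRK3) had 0.10 (-0.14 to 0.34). Kcnj9 lies 11.9 kb from Kcnj10, a gene left out by the naming rule that rose by 1.31 on the log2 scale (adjusted p = 7.96e-12).

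Kcnj2, on chromosome 11 from 111066164 to 111076821, encodes a strong inward rectifier that holds cells near their resting potential. It had 8.83, 9.43 and 11.1 CPM with T3, against 12.7, 13.5 and 16.7 CPM without T3. The 2 groups did not overlap, and Kcnj2 fell to 0.708-fold (log2 -0.50, SE 0.0924, adjusted p = 0.00188). The 6 mice ran from -0.57 to -0.40, an SD of 0.0639, the smallest of the 65 genes. Kcnj6 and Kcnj2 passed in all 16 alternatives, and of the other 8 genes that passed Kcnip1 alone did so. Kcnj16, 38.2 kb from Kcnj2, had a log2 change of 0.20 (adjusted p = 0.534). The other rectifiers did not pass: Kcnj4, the most abundant per kb, had -0.04 (-0.22 to 0.15), Kcnj12 had 0.18 (-0.12 to 0.47) and Kcnj11, the pore of ATP-sensitive channels, had -0.05 (-0.42 to 0.31).

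Kv3 channels close fast and allow high firing rates. Kcnc2, on chromosome 10 from 112271121 to 112467024, had 22.6, 26.2 and 28.3 CPM with T3, against 29.4, 30.9 and 38.2 CPM without T3. All T3 cultures lay below all others, and Kcnc2 fell to 0.806-fold (log2 -0.31, SE 0.0709, adjusted p = 0.01). The call was lost without mouse 3 (adjusted p = 0.0522) and without the block (0.0904). Kcnc1 lay on the other side: it had 69.9, 72.3 and 79.9 CPM with T3, against 50.7, 66.6 and 69.7 CPM without T3. Its groups also did not overlap, by a narrow margin, and its log2 change of 0.20 did not pass (adjusted p = 0.0881), except without mouse 1 (0.034). Without mouse 5, whose no T3 culture was the lowest, it was 0.13 (adjusted p = 0.338). Kcnc4 had 0.04 (-0.11 to 0.18).

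Of the 8 genes of the EAG, ERG and ELK channels 2 fell, beside 2.14% of all genes tested. Both are of the ELK branch, which opens below the spike threshold. Kcnh3, on chromosome 15 from 99224861 to 99242817, had 29.5, 39.6 and 50.4 CPM with T3, against 37.4, 47.3 and 54.1 CPM without it. The groups overlapped, mouse 4 was nearly level (log2 0.001) and the other 5 mice were lower with T3. Kcnh3 fell to 0.827-fold (log2 -0.27, SE 0.0757, adjusted p = 0.0366), a call lost without mouse 1 (log2 -0.20, adjusted p = 0.102), 2 (0.0979), 3 (0.0585), 5 (0.0614) or 6 (0.078), without the block (0.473) and with DESeq2 (0.0769). Kcnh4, on chromosome 11 from 100740376 to 100759942, was near the lower limit of the table, with 5 to 17 reads a library. It had 0.639, 1.11 and 1.55 CPM with T3, against 1.54, 2.09 and 2.29 CPM without T3. The groups touched only at their ends, all 6 mice were lower with T3, and Kcnh4 fell (log2 -0.68, SE 0.195, adjusted p = 0.0457). Leaving out any single mouse ended this call, with adjusted p between 0.0548 and 0.146, and so did leaving out the block (0.095). The third ELK gene, Kcnh8, had -0.17 (-0.54 to 0.21). Kcnh1, of the EAG branch, had 0.27 (0.06 to 0.47, adjusted p = 0.134), and 0.17 without mouse 4 (adjusted p = 0.392).

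Kv7 channels carry the M current, which restrains repeated firing. Of the Kv7 genes described here, Kcnq3 had a log2 change of 0.06 (-0.11 to 0.22) and Kcnq5, with 14.6 ± 1.11 CPM per kb with T3 and 14.2 ± 1.44 CPM per kb without it, had 0.04 (-0.08 to 0.17). Neither passed.

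Of 8 K2P genes, which encode leak channels, 2 rose, beside 3.37% of all genes tested. Kcnk9 (TASK-3), on chromosome 15 from 72501089 to 72546340, encodes an acid-sensitive channel and had 10.4, 16.0 and 18.4 CPM with T3, against 8.10, 11.3 and 14.1 CPM without it. The groups overlapped, and mouse 1 alone was not higher with T3 (log2 -0.01). Kcnk9 rose 1.34-fold (log2 0.42, SE 0.103, adjusted p = 0.0175), and the call was lost without mouse 3 (0.0511), 4 (0.0742), 5 (0.0624) or 6 (0.0668), without the block (0.255) and with DESeq2 (0.0817). Kcnk1 (TWIK-1), on chromosome 8 from 125995170 to 126030685, encodes a weakly conducting channel that astrocytes also use. It had 28.9, 32.2 and 37.8 CPM with T3, against 23.0, 26.6 and 30.4 CPM without it. The groups overlapped, each mouse was higher with T3, and Kcnk1 rose 1.22-fold (log2 0.29, SE 0.0753, adjusted p = 0.0268). That call was lost without mouse 1 (0.0754), 3 (0.0855), 4 (0.0736) or 6 (0.0949), without the block (0.163) and with DESeq2 (0.108). Kcnk3 (TASK-1), the closest relative of Kcnk9, had -0.02 (-0.23 to 0.18). The mechanosensitive TREK genes had 0.03 (-0.10 to 0.16) for Kcnk2 and -0.20 (-0.36 to -0.03, adjusted p = 0.181) for Kcnk10. The summed level of the K2P genes was 142.2 ± 9.74 CPM with T3 and 134.3 ± 9.03 CPM without it.

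No gene passed in the remaining groups. The 5 tested Kv1 genes had log2 changes from -0.18 to 0.02. The lowest was Kcna4, with 15.9 ± 0.967 CPM with T3 and 18.1 ± 1.35 CPM without it, lower with T3 in 6 of 6 mice (adjusted p = 0.249). Kcna5, with 2 to 13 reads a library, was not tested and averaged 0.779 ± 0.265 CPM with T3 and 0.928 ± 0.765 CPM without it. The Kv2 pore Kcnb2 had 0.00 (-0.20 to 0.21). The 7 genes of the group called calcium- and sodium-activated lay between -0.17 and 0.12. That group was sorted by the letters of the symbols and not by what opens each channel. In it the BK pore Kcnma1 had -0.02 (-0.14 to 0.10), the small-conductance pores Kcnn1 and Kcnn2 had 0.10 and 0.12, and the sodium-activated Kcnt1 had -0.12. The 8 silent subunits lay between -0.29 and 0.09, with Kcnv1, a partner of Kv2 pores, at -0.26 (-0.46 to -0.07, adjusted p = 0.124), and at -0.16 without mouse 6 (adjusted p = 0.406).

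Over all subfamilies 55 genes did not pass, with log2 changes from -0.29 to 0.27. The 95% interval lay wholly within 0.5 of 0 on the log2 scale for 48 of them. At an unadjusted p of 0.05, 18 of the 65 genes passed (27.7%, beside 17.5% of all genes), the 10 above and 8 others, Kcnab2, Kcnc1, Kcnv1, Kcnd3, Kcnh1, Kcnk10, Kcnip2 and Kcna4.

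The subunit genes differed widely in how their variance was divided between fetuses and treatments. Over the 12 libraries the median share of the variance of log2(value + 0.5) was 59.7% between mice and 6.04% between treatments, with 24.2% in neither. With no effect of either, the 5 degrees of freedom between mice would hold 45.5% on average, the 1 between treatments 9.09% and the rest 45.5%. Kcnc4 had 95.7% of its variance between mice, Kcnf1 94.5%, Kcns1 94.4% and Kcnab1 93.9%. The mean of the 2 cultures of a mouse was taken on the scale of log2(value + 0.5) and turned back to CPM. For Kcnab1 it ran from 12.6 CPM in mouse 6 to 35.5 CPM in mouse 5, a ratio of 2.74 with 0.5 added to both. The share between treatments differed among the genes that passed. It was larger than that between mice for Kcnj2 (80.3%), Kcnj6 (80.2%), Kcnip1 (72.9%), Kcnh4 (70.4%), Kcnc2 (59.8%) and Kcnk1 (50.9%). It was smaller for Kcnk9 (39.6%, against 47.3% between mice), Kcnip4 (31.1% and 58.0%) and Kcnh3 (25.7% and 58.7%). Among genes that did not pass, Kcnk10 had 55.7% and Kcna4 52.5% between treatments. These shares describe the libraries and were not tested.

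**Figure D4:**
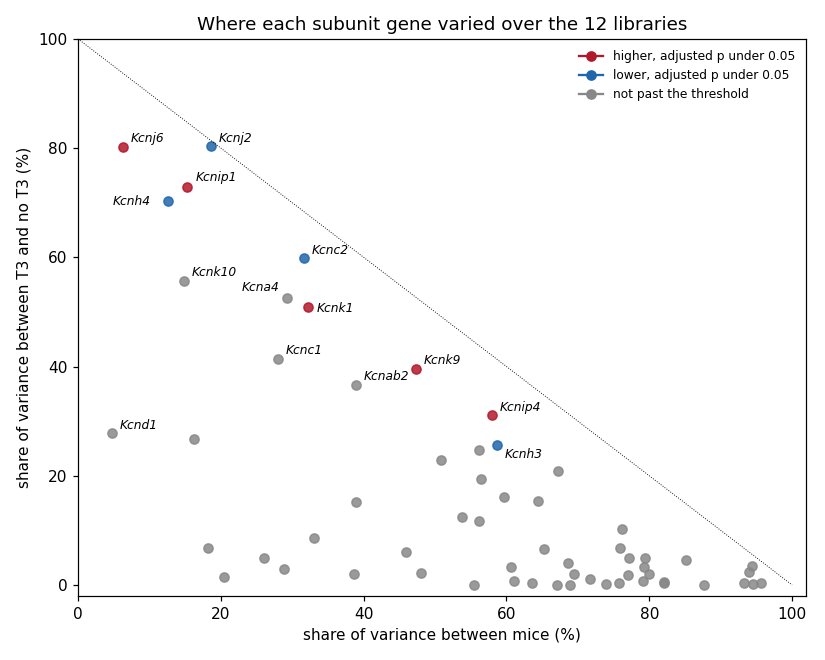
Share of each gene's variance between mice (x axis, %) and between T3 and no T3 (y axis, %) over 12 libraries, for 61 of the 65 tested subunit genes, coloured as rose (red), fell (blue) or did not pass (grey). The dotted line marks shares that sum to 100%. Kcnj2 and Kcnj6 lie at the top left with over 80% between treatments, and most grey genes lie at the lower right.

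The starts of the genes that passed were read for the half-site of thyroid hormone receptors, AGGTCA or its variant GGGTCA, on both strands. RefSeq windows of 300 bases (250 before to 50 after a start, GRCm38.p6) were at hand for 45 of the 65 tested genes and 7 of the 10 that passed, with none for Kcnh3 and Kcnk9. The windows that hold a match are shown because they belong to genes that moved with the hormone, 5′ to 3′ on the strand of the gene, with the half-site in capitals, which reads TGACCT or TGACCC where it lies on the other strand.
Kcnip4: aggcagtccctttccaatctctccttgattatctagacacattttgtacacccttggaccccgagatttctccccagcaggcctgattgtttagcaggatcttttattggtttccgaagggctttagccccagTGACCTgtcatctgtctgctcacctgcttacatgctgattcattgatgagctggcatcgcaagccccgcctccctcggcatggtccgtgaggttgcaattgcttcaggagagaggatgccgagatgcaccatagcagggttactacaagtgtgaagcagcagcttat
Kcnip1: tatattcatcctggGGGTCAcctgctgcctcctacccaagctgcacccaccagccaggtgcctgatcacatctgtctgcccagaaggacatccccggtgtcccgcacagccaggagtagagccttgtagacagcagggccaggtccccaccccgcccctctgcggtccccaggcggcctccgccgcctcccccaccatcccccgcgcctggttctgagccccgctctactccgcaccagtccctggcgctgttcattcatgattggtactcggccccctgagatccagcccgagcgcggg
Kcnk1: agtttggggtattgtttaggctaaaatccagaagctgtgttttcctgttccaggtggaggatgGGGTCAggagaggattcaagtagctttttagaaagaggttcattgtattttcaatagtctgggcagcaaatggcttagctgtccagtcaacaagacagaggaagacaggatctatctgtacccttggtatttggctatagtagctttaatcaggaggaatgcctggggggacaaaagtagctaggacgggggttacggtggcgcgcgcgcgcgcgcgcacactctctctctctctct
Kcnh4: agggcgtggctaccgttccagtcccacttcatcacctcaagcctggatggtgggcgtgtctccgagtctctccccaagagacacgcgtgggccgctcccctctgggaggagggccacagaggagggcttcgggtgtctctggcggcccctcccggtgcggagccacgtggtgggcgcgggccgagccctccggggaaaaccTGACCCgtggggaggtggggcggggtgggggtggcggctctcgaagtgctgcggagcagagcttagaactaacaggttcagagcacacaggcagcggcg
The Kcnip4 window is chr5:49285610-49285909 (minus strand), 1 of 2 listed starts of that gene, with a match that begins 117 bases before it. The Kcnip1 window is chr11:33843637-33843936 (minus strand), 1 of 3 listed starts of that gene, with a match that begins 236 bases before it. The Kcnk1 window is chr8:125994852-125995151 (plus strand), with a match that begins 187 bases before the start. The Kcnh4 window is chr11:100759729-100760028 (minus strand), with a match that begins 49 bases before it. AGGTCA was present in 1 and GGGTCA in 3 of the 14 windows of genes that passed, beside 4 (6.15%) and 10 (15.4%) of the 65 windows of the tested subunit genes and 16.3% and 13.7% of all 32817 windows. The direct repeat of AGGTCA with 4 bases between was in none of the subunit windows and in 5 of all windows (0.0152%). A match is a run of letters and not a bound site, and both directions of change are among these 4 genes.

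Other genes of potassium handling were read from a list of 35, of which 31 were tested. Of these 5 rose and 1 fell, beside 3.37% and 2.14% of all genes, and without mouse 4 the number that passed was 4. Lrrc55, which encodes a gamma subunit that shifts the voltage range of BK channels, had 32.6 ± 2.42 CPM with T3 and 22.9 ± 2.76 CPM without it. Its log2 change was 0.50, a rise seen in 6 of 6 mice (SE 0.0855, adjusted p = 0.000808, and 0.00336 without mouse 4). It passed in all 16 alternatives. Its pore partner Kcnma1 had 85.7 ± 7.88 CPM with T3 and 86.7 ± 6.12 CPM without it. The sodium-potassium pump subunit Atp1b2 (0.35, adjusted p = 0.000171, and 0.00168 without mouse 4) rose, as did the potassium-chloride cotransporter Slc12a4 (0.35, adjusted p = 0.0319) and Kcnj10 (adjusted p = 1.94e-10 without mouse 4). The call of Slc12a4 was lost without mouse 4 (0.0969), 5 (0.139) or 6 (0.116), without the block (0.27), without trend and robust estimation (0.138) and with DESeq2 (0.101). Without the block the adjusted p of Atp1b2 was 0.293 and that of Kcnj10 0.288. Atp1b2 and Kcnj10 are known from astrocytes, whose summed markers were higher with T3 in 6 of 6 mice. The 10 tested astrocyte markers had log2 changes from 0.12 to 0.44, beside 0.35 for Atp1b2 and 1.31 for Kcnj10. The part of astrocytes in these rises was not tested. Epb41l3, a membrane scaffold of axons, fell by 0.19 (adjusted p = 0.0375). That call was lost without mouse 3 (0.217), 4 (0.0723), 5 (0.101) or 6 (0.0727), without the block (0.202) and without trend and robust estimation (0.166). The 4 Hcn genes, whose channels carry the hyperpolarization-activated current, lay between -0.11 and 0.10 and did not pass.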

How the data were processed

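Per the labels' protocols, 500 ng of total RNA per culture went into a library kit that keeps no strand, and single reads of 75 bases were produced. The submitters' processing notes name GRCm38, TopHat, Bowtie, HTSeq, CASAVA, FastQC and edgeR, with no version given in the sources used here. Per the file headers, the deposited signal is TMM-normalized, and it is read as CPM. The table lists genes at 1 CPM or more in at least 2 libraries. Each value was a whole multiple of what 1 read is worth (100% within 0.01 reads), which gave the reads of each library on the listed genes. A count of 3 reads, the limit that 0 reads allow by counting error alone, came to 0.273 to 0.557 CPM.

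Changes were tested with limma 3.58.1 (R 4.3.3) on log2(value + 0.5), using a trend, robust variances and a block for the mouse, over the 13663 genes kept by filterByExpr of edgeR 4.0.16. This scale understates changes of low genes. Two-sided p-values were adjusted over all genes tested by Benjamini-Hochberg, and adjusted p-values of genes are from this fit unless another tool is named. Alternatives were edgeR, limma-voom and DESeq2 1.42.0 on the recovered reads, other pseudocounts and filters, no block and each mouse left out. The script was tested on simulated data.

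The pairing comes from the series' design, in which each fetus gave both cultures. Deviations from the group means correlated between 0.237 and 0.638 within a mouse and at most 0.348 between mice, and in 6 of 6 mice the own partner matched best. Libraries of the same group differed beyond sampling noise (chi-square per degree of freedom at least 2.51). Gene positions, symbols and exon lengths are from GENCODE for GRCm38, matched on Ensembl gene identifiers for 14648 of 14801 genes. Named genes are those that passed, those at an unadjusted p under 0.05, and the leading 2 of each subfamily by level per kb. Others are named to account for them. Members and lists were chosen with earlier results of these data known. Some members and listed genes are counted but not reported here by name.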

Additional observations from a re-analysis of the deposited data

Results flagged for a closer look

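In 4 subunit genes a single culture lay far from the other 5 of its group by Dixon's test, in 66 groups of the named genes, and chance alone picks out about 1 in 20 groups. Kcnb2 had 16.7 CPM in the T3 culture of mouse 2, with the next at 12.6 CPM. Kcnj4 had 12.3 CPM in the T3 culture of mouse 1, and the gap to the next was 0.691 of the range of the group. Kcnip4 had 15.7 CPM in the no T3 culture of mouse 5, with the next at 7.03 CPM. Kcnc1 had 50.7 CPM in the no T3 culture of mouse 5, with the next at 65.1 CPM. Kcnip4 is the only one of these 4 that passed the test, and it also passed without mouse 5.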

How the results depend on the processing

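Without the replicate block the pairing by mouse is not used: 178 genes passed (125 higher, 53 lower) in place of 754 (461 higher, 293 lower), 3 subunit genes (2 higher, 1 lower) in place of 10, and 1 of the other potassium-handling genes (1 higher, 0 lower) in place of 6. Without the trend and robust estimation 337 genes passed (224 higher, 113 lower), 6 subunit genes (3 higher) and 3 of the other genes (3 higher, 0 lower). With DESeq2 on the recovered reads 4 subunit genes passed (2 higher, 2 lower), beside 531 of all genes. Both edgeR scalings, TMM and RLE, called 10 subunit genes. Leaving out each mouse gave 459 to 854 genes (304 to 526 higher, 155 to 328 lower), 4 to 10 subunit genes (3 to 7 higher, 1 to 3 lower) and 3 to 6 of the other genes (3 to 5 higher, 0 to 1 lower). The cause of these moves was not tested. Of 526 values of the 33 named subunit genes under alternatives, 467 kept direction and side of the threshold, 39 fell short of it, 4 newly passed and 16 changed sign. The changes of sign were in 8 genes that passed nowhere, all with log2 changes near 0. Kcnb2 had -0.0075 with limma-voom, -0.0046 and -0.0067 with edgeR (TMM and RLE) and -0.0060 with DESeq2. Leaving out each mouse, Kcnb2 ran from -0.054 to 0.049, Kcna3 from -0.041 to 0.055, Kcna6 from -0.0080 to 0.050, Kcnf1 from -0.021 to 0.049, Kcnj3 from -0.087 to 0.0048, Kcnj4 from -0.093 to 0.046, Kcnk2 from -0.012 to 0.057 and Kcnma1 from -0.048 to 0.025. With a mean of at least 2 CPM Kcnh4 was not tested, and DESeq2 gave it no adjusted p. Genes of few reads, such as Kcnh4 and Kcna5, are limited by depth.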
